A study of Homo sapiens with 4 samples.

Results

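The regions described here were the acetylated intergenic regions of Kasumi-1 cells that lay far from every annotated transcription start site (TSS) and were not centred on a repeat element. They were chosen from the authors' deposited annotation as regions labelled Intergenic, with a centre more than 100 kb from the nearest TSS and a detailed annotation that named no repeat. No measured signal entered this choice. It gave 1225 of the 45672 regions in 4 tables, or 2.68%, and they are called far intergenic regions below.

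Kasumi-1 is an established human cell line from acute myeloid leukaemia with the t(8;21) translocation. Acetylation of histone H3 at lysine 27 (H3K27ac) was mapped with CUT&Tag, where an antibody tethers the Tn5 transposase to the marked chromatin so that tagged DNA is released there. The control samples, labelled WT, received a non-targeting guide (sgNT, 2 samples) and the samples labelled SETD8 knockout received a guide against SETD8 (sgSETD8, 2 samples), both with CRISPR/Cas9 and 100000 cells per library. SETD8, also called KMT5A, is the enzyme that places a single methyl group on lysine 20 of histone H4. The sample titles and antibody label name H3K27ac, whereas the design text names H3K27me1. The labels do not say whether the samples were separate cultures, whether the edited cells were clones, or how complete the knockout was, and the tables hold no measure of SETD8 itself.

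H3K27ac is deposited at active promoters and enhancers, and broad runs of acetylated enhancers are known around genes of cell identity. Enhancers can act over long distances, often across gene-poor DNA, so the nearest gene is a label of position and not a target. Long non-coding RNA genes, whose function is in most cases unknown, are common in such DNA, and many of their starts are missing from older annotations.

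The 4 tables fell into a sparse pair, with 5186 regions for sgNT and 7276 for sgSETD8, and a dense pair, with 15149 and 18061. The sparse sgNT table was assigned to its group because its identifiers name no guide, which is weaker than for the other 3 tables. Each region carries a deposited signal, and signal divided by width is given here as density per bp, with rank 1 for the highest signal in a table. Densities were compared only within a pair. With 2 tables per group the smallest exact two-sided permutation p is 0.333, so no p-value is given. Intervals are exact (Clopper-Pearson) 95% binomial intervals that cover counting error only, and read depth is unknown.

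A small number of far intergenic regions held a transcription start in RefSeq (GRCh38.p14) although the deposited annotation placed its nearest TSS at least 100 kb away. Promoter windows, from 250 bases before to 50 bases after a start, overlapped 3 regions in each sparse table, 13 in dense sgNT and 16 in dense sgSETD8. There were 30 such windows, belonging to 25 genes, and CRACD, whose protein restrains actin capping proteins, was a protein-coding gene among them. The sequences shown are the windows found in 3 tables, the CRACD window, and a window from the LINC01108 stretch described further on. All are on the plus strand, and capitals mark matches to the motifs searched.
CRACD, chr4:56048848-56049097, the 250 bases before the start: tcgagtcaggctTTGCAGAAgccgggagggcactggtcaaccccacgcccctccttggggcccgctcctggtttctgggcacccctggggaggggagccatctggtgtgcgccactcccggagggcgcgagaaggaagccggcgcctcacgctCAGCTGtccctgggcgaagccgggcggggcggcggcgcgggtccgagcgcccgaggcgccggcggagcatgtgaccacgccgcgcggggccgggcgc
LOC124903147, chr13:31045852-31046151: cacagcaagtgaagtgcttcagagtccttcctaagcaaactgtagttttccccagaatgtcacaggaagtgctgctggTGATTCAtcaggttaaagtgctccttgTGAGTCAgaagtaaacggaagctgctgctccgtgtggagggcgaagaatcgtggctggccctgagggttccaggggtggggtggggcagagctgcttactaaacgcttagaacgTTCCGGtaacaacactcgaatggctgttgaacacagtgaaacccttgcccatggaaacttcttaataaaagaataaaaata
LOC124905143, chr22:49372708-49373007: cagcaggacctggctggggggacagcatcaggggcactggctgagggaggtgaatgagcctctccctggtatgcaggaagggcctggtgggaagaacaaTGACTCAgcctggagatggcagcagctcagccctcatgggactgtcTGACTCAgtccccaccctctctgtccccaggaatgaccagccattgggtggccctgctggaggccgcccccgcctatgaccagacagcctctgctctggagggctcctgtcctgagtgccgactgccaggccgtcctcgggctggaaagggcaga
LOC102724463, chr6:14658901-14659200: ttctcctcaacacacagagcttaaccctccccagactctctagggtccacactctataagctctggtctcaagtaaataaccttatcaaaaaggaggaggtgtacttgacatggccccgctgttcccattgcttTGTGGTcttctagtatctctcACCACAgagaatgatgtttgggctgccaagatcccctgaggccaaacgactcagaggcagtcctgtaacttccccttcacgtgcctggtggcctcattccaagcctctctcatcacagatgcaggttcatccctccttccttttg

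The CRACD window had 75.7% G and C over its 300 bases, the highest of the 30, whose median was 48%, against 58.7% over all 35116 RefSeq promoter windows. The sparse sgNT region at CRACD (1.16 kb, rank 889) was annotated as a CpG island and labelled by CEP135, a centriole gene, at 100.4 kb. Dense sgNT held a 20-kb far intergenic region there (rank 1966), dense sgSETD8 held an 18.3-kb region (rank 2579), and sparse sgSETD8 held none within 320.8 kb. The LOC124903147 window lay in far intergenic regions of sparse sgNT (rank 2168), dense sgNT (rank 9995) and dense sgSETD8 (rank 10414), each under 1 kb wide and labelled by TEX26. Its capitals mark 2 AP-1 matches and an ETS match. The LOC124905143 window, labelled by MIR3667, was overlapped in sparse sgSETD8 (rank 2332), dense sgNT (rank 2963) and dense sgSETD8 (rank 3668), and its capitals mark 2 AP-1 matches. The LOC102724463 window lay inside broad regions of both dense tables, and its capitals mark RUNX matches.

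Motifs were searched on both strands as exact letters. The AP-1 letters TGANTCA were in 3 of the 30 windows (10%) and in 7.71% of all promoter windows. The CEBP letters TTGCNNAA were in 5 (16.7%) against 10.5%, and the E-box CAGCTG in 5 (16.7%) against 17.9%. The RUNX letters TGTGGT were in 2 (6.67%) against 13.1%. The letters AGATAA, bound by the GATA family, were in 2 (6.67%) against 10.3%. The ETS letters CCGGAA were in 1 (3.33%) against 17.2%. With 30 windows, of which the 2 of LINC02357 overlap, these counts are a description.

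Far intergenic regions were more numerous in the sgSETD8 table of each pair, though not among the best-ranked 5000 regions of the dense tables, where sgNT held 74 and sgSETD8 64. Sparse sgNT held 174 against 300 for sparse sgSETD8, and dense sgNT held 317 and dense sgSETD8 434. The lower sgSETD8 value (300) was below the higher sgNT value (317), so the groups overlapped. The count rose by a ratio of 1.72 in the sparse pair, and by 1.37 between the dense tables. On the log2 scale the ratios averaged 0.62 ± 0.24 (SD over 2 pairs). All regions together also increased in number, by ratios of 1.40 and 1.19. As a share of all regions, far intergenic regions made up 3.36% (interval 2.88 to 3.88%) for sparse sgNT, rising to 4.12% (3.68 to 4.61%) for sparse sgSETD8. In the dense pair they made up 2.09% (1.87 to 2.33%) in sgNT and 2.40% (2.19 to 2.64%) in sgSETD8. The intervals overlapped in both pairs.

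**Figure D1:**
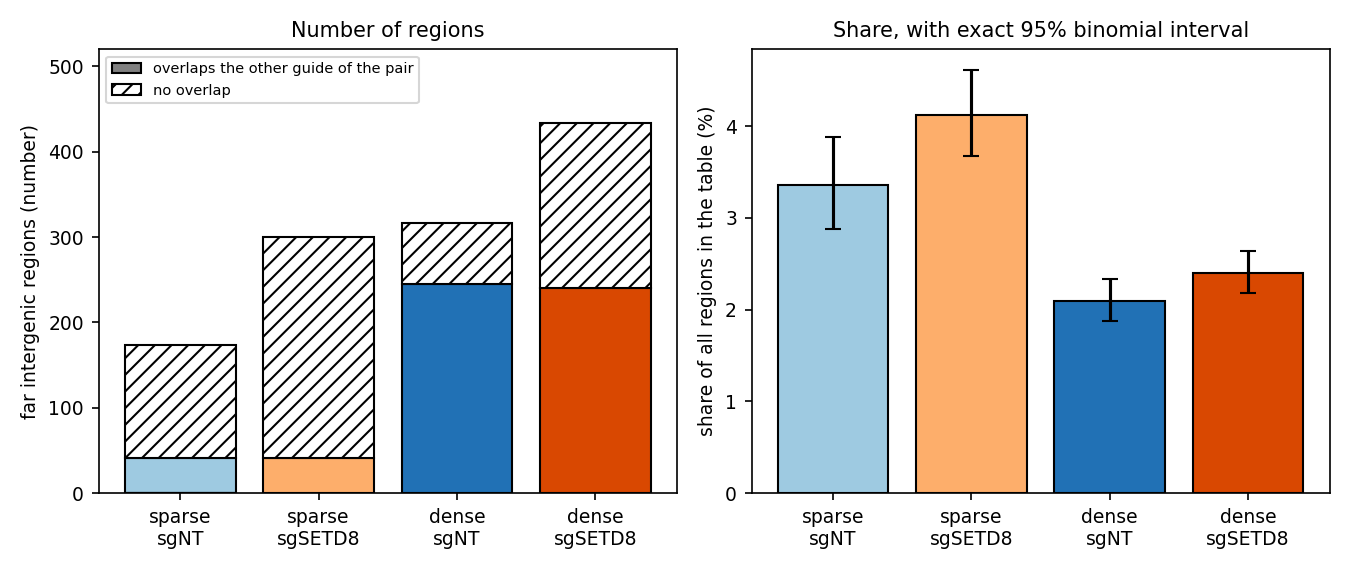
Left, number of far intergenic regions per table (y axis), solid where a region of the other guide's table in the pair overlaps and hatched where none does. Right, their share of all regions in the table (y axis, %), with exact 95% binomial intervals; the share is higher in sgSETD8 in both pairs, at 4.12% against 3.36% and 2.40% against 2.09%, with overlapping intervals.

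The share among intergenic regions did not move in one direction. It fell from 9.04% to 8.78% between the sparse tables, a difference of -0.26 points, and went from 8.53% to 9.48% between the dense tables, a difference of 0.94 points. Intergenic regions that were not repeat-centred but lay within 100 kb of a TSS numbered nearly the same in the sparse pair (ratio 1.00) and rose by a ratio of 1.13 in the dense pair. Intronic regions beyond 100 kb gave ratios of 1.04 and 1.30. Repeat-centred intergenic regions beyond 100 kb numbered 117 in sparse sgNT, 683 in sparse sgSETD8, 184 in dense sgNT and 346 in dense sgSETD8. Non-repeat regions were thus 59.8% of all intergenic regions beyond 100 kb in sparse sgNT, 30.5% in sparse sgSETD8, 63.3% in dense sgNT and 55.6% in dense sgSETD8.

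Far intergenic regions were narrower in sparse sgSETD8 than in sparse sgNT. Median width was 355 bp in sparse sgSETD8 against 501 bp in sparse sgNT, and 26.3% of the far intergenic regions of sparse sgSETD8 had the table's minimum width of 274 bp. The same held for that table as a whole, since its other regions had a median of 340 bp, against 512 bp in sparse sgNT, and 29.9% were at the minimum. At widths of at least 500 bp the sparse pair held 87 in sgNT and 73 in sgSETD8, so the direction turned. In the dense pair the medians were 819 bp for sgNT and 897 bp for sgSETD8, below the 1549 and 1520 bp of all other regions of those tables. Single peaks made up 67.2% and 67.7% of the dense far intergenic regions, against 57.7% and 59.4% of the others. A small number were broad, with 18 regions of dense sgNT and 22 of dense sgSETD8 joining at least 5 peaks, and the widest spanning 73.7 kb and 113.9 kb. Few ranked high. The best-ranked 10% of a table held 4.60% of the far intergenic regions in sparse sgNT, 4.73% in dense sgNT and 4.61% in dense sgSETD8, but 10.3% in sparse sgSETD8.

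The regions lay mostly between 100 and 250 kb from a TSS. Median distances were 156 kb in sparse sgNT, 173 kb in sparse sgSETD8, 151 kb in dense sgNT and 160 kb in dense sgSETD8. More than 200 kb from a TSS were 53 (30.5%), 118 (39.3%), 95 (30.0%) and 141 (32.5%) regions in that order. The sgSETD8 share was the higher in each pair. Distances reached 3.66 Mb in both sparse tables and 1.43 Mb in both dense tables. The 3.66-Mb region of sparse sgNT (chr1:125179966-125183921) was labelled by the pseudogene EMBP1. It lay in a gap of 22.4 Mb between protein-coding genes, and the nearest dense region was 3650 kb away. The nearest gene was non-coding for 29.9%, 43.7%, 34.7% and 35.7% of the far intergenic regions, against 20.4%, 27.8%, 21.2% and 21.9% of the other regions of the same tables. In RefSeq, 23.6%, 27.3%, 29.7% and 30.0% overlapped a gene, in most cases a long non-coding RNA gene (36, 64, 84 and 108 regions). The median gap between the flanking protein-coding genes was 0.589, 0.710, 0.524 and 0.594 Mb.

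**Figure D2:**
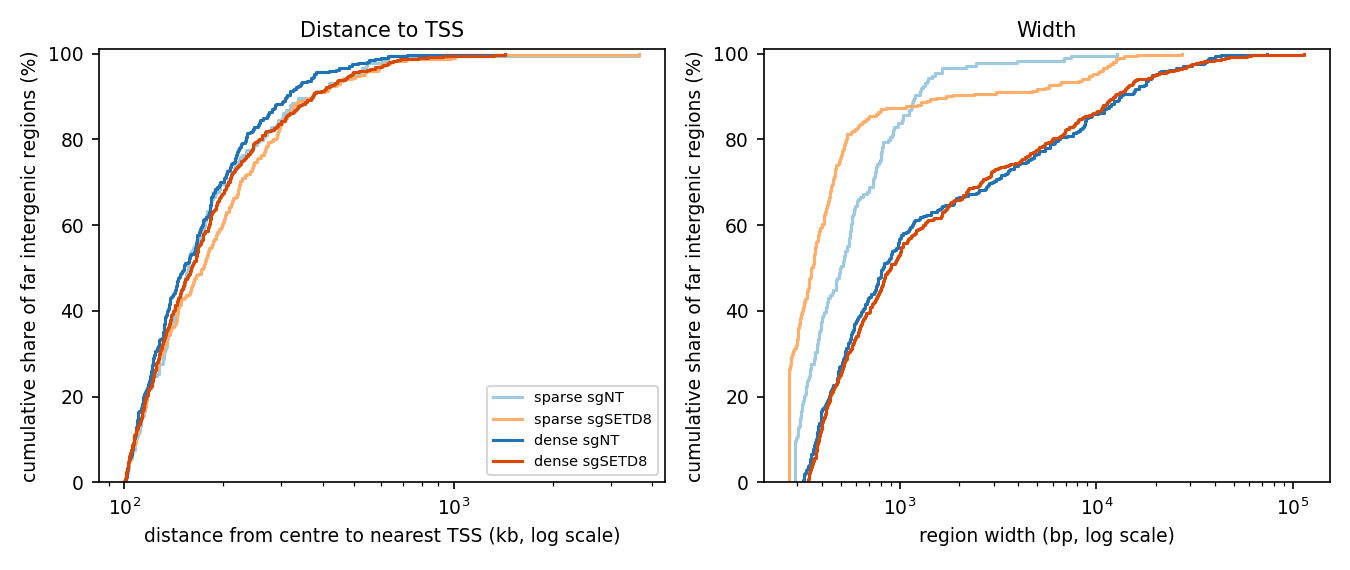
Cumulative share of far intergenic regions (y axis, %) by distance from the region's centre to the nearest TSS (left, kb, log axis) and by region width (right, bp, log axis), a line per table. The sparse sgSETD8 line is shifted to longer distances (median 173 kb) and to narrow widths (median 355 bp), and the dense lines lie close together.

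The distance limit cut through some stretches. Just inside it were a dense sgNT region labelled by SAMD9 at 100653 bp and a dense sgSETD8 region labelled by MIR4432HG at 100348 bp. Just outside were regions labelled by CLIC5 at 99703 bp in dense sgNT and 99727 bp in dense sgSETD8. A sparse sgNT region labelled by LY86-AS1, of rank 103, was left out at 99301 bp.

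The share of far intergenic regions without a counterpart was higher in sgSETD8 than in sgNT in each pair, as it was for all regions. A counterpart was any region, of whatever annotation, of the other table of the pair that shared at least 1 bp. In sparse sgNT 133 of 174 had none (76.4%, interval 69.4 to 82.5%), beside a background of 79.1% of all regions of that table. In sparse sgSETD8 259 of 300 had none (86.3%, 81.9 to 90%), beside 85.1% of all. In dense sgNT 72 of 317 had none (22.7%, 18.2 to 27.7%), beside 22.7% of all. In dense sgSETD8 194 of 434 had none (44.7%, 40 to 49.5%), beside 34% of all. The first 3 shares were near their background, and the dense sgSETD8 share was above it, with an interval that did not reach 34%. Far intergenic regions with a counterpart numbered 41 in each sparse table, 245 in dense sgNT and 240 in dense sgSETD8. The higher shares without a counterpart in sgSETD8 therefore follow from its higher counts of far intergenic regions. Regions that are single peaks were more often without a counterpart in every table, and among single peaks of dense sgSETD8 the share was 57.8% of far intergenic and 48.3% of other regions. In the same table the share was 40.7% for non-repeat intergenic regions within 100 kb of a TSS, 42.0% for far intronic and 54.3% for repeat-centred far intergenic regions, so shares above 34% were also seen in these other classes.

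Counterparts could change class when a boundary moved the centre of a region. Of the 245 dense sgNT regions with a counterpart, 164 had one that was itself a far intergenic region, and for 78 the counterpart was centred on a repeat. Of the 240 of dense sgSETD8 the numbers were 170 and 65. Regions without a counterpart were narrower in each table, with medians of 457 against 1131 bp in dense sgNT and 538 against 2198 bp in dense sgSETD8.

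Overlap between the pairs was not regularly higher for the same guide than for the other guide. Of the far intergenic regions of sparse sgNT, 62.6% overlapped a region of dense sgNT and 69.5% one of dense sgSETD8. For sparse sgSETD8 these shares were 17.0% in dense sgSETD8 and 16.3% in dense sgNT. For dense sgNT they were 27.8% in sparse sgNT against 15.5% in sparse sgSETD8, and for dense sgSETD8 9.91% in sparse sgSETD8 and 24.4% in sparse sgNT. Sparse regions that overlapped anything in the dense pair numbered 129 for sgNT and 57 for sgSETD8, the opposite order to the full counts. As shares these were 74.1% and 19.0%, beside 79.0% and 29.3% of all regions of the same tables. All regions together gave the same order of the 2 guides within each table. Their shares were 71.2% and 74.5% for sparse sgNT and 26.3% and 24.7% for sparse sgSETD8, the same guide first. For dense sgNT they were 22.1% and 10.9%, and for dense sgSETD8 9.83% and 19.7%. Far intergenic regions thus had lower shares than all regions in both sparse tables. Their shares were higher in dense sgNT, and in dense sgSETD8 for overlap with sparse sgNT. The 243 far intergenic regions of sparse sgSETD8 that overlapped nothing in the dense pair had a median width of 339 bp and a median rank of 4385.

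Joined where they overlapped, the regions formed 893 loci. The commonest pattern was a locus called in sparse sgSETD8 alone, with 235 loci (26.3%), followed by dense sgSETD8 alone (177) and both dense tables (174). Loci called in sgSETD8 tables only numbered 415, but 3 of these were in both sgSETD8 tables. Loci in sgNT tables only numbered 106, of which 8 were in both sgNT tables. A region was present in all 4 tables at 52 loci (5.82%).

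The 3 loci found with both sgSETD8 tables and no sgNT table were weak in at least 1 of them. Near DYRK1A, a kinase gene of the Down syndrome region, sparse sgSETD8 held a 12.9-kb region (rank 499, density 0.166) and dense sgSETD8 a 392-bp region of rank 16710. Upstream of MEF2A, which encodes a myocyte enhancer factor, the sparse region was a 274-bp peak of rank 5562, and sgNT regions overlapped other parts of the 26.7-kb dense region that covers it. At LOC101927575 the ranks were 6422 and 8235. Among the loci of both sgNT tables only, the one upstream of LOC102724096 was 309 bp in sparse sgNT and 804 bp in dense sgNT (ranks 4913 and 8437). A dense sgSETD8 region lay 0.639 kb from the sparse sgNT region there.

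Some of the best-ranked of the 52 loci present in all 4 tables are described next. Between KIT, the receptor for stem cell factor, and KDR, a receptor for vascular endothelial growth factor, sparse sgNT held a 1.52-kb region (chr4:54818742-54820256) with a density of 18.1 and rank 44, 161.6 kb from the KIT start. All other tables held a repeat-centred region over it, of 32.8 kb and rank 19 in sparse sgSETD8, 26.1 kb and rank 221 in dense sgNT, and 25.7 kb and rank 140 in dense sgSETD8. Acetylation was therefore called at this position in each library although it met the non-repeat rule in 1 table. Beyond the 3′ end of BCL2, whose protein blocks apoptosis, sparse sgSETD8 held a 12.6-kb region of rank 156 and sparse sgNT a 367-bp region of rank 2677. Both dense tables joined that position to regions of 232.3 and 248.3 kb centred in BCL2 introns, of rank 12 and rank 11.

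The widest far intergenic region lay upstream of VAV3, the gene of a guanine nucleotide exchange factor. In dense sgSETD8 it ran over chr1:108016360-108130263, 113.9 kb with 23 peaks and rank 145. The dense sgNT region there was 114.7 kb with 25 peaks and rank 139 and was repeat-centred. The best-ranked far intergenic region of dense sgNT was labelled by LOC102723883 (chr6:67880851-67899885, rank 248, density 2.97), and the other tables held repeat-centred regions there, of rank 9 in sparse sgNT, 382 in sparse sgSETD8 and 223 in dense sgSETD8.

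PPARGC1A, a coactivator that drives mitochondrial biogenesis, was labelled by a narrow far intergenic region in each table. It lay about 547 kb from the start of the gene on chromosome 4. Its width was 1036 bp in sparse sgNT, 1380 bp in sparse sgSETD8, 1126 bp in dense sgNT and 980 bp in dense sgSETD8. Its density went from 2.77 to 1.02 between the sparse tables and from 0.817 to 0.761 between the dense ones. Densities of all matched regions were also lower in sgSETD8, with median log2 ratios of -0.47 in the sparse and -0.26 in the dense tables, so no direction is drawn for PPARGC1A. Dense sgSETD8 held a further far intergenic region labelled by PPARGC1A, 578.6 kb from the start of the gene.

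Regions were grouped along the genome, mainly in the dense tables. Lying within 100 kb of another far intergenic region of the same table were 23% in sparse sgNT, 18.7% in sparse sgSETD8, 39.4% in dense sgNT and 41.2% in dense sgSETD8. The largest groups were 4 regions near INHBA, which encodes an activin subunit, in sparse sgNT, and 3 labelled by ICE1 and LINC02145 in sparse sgSETD8. They were 7 labelled by LY86-AS1 and RREB1 over 222.4 kb in dense sgNT, and 8 labelled by MIR4432HG over 263.1 kb in dense sgSETD8.

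MIR4432HG, a microRNA host gene next to BCL11A, labelled the most far intergenic regions of any gene. It had 1 in sparse sgNT, 0 in sparse sgSETD8, 5 in dense sgNT and 9 in dense sgSETD8. BCL11A is a transcriptional repressor of fetal globin genes and a B-cell factor. Both dense tables shared a core region of 16.4 kb in sgNT (chr2:60090924-60107348, rank 668, density 1.81) and 15.4 kb in sgSETD8 (rank 1018, density 1.20). Of the further regions of dense sgSETD8, those at 59937570, 59972155 and 60053607 were single peaks of at most 708 bp and of rank 12598 or lower. A further dense sgSETD8 region (density 0.80) lay over a dense sgNT region (density 1.55) that was not far intergenic by the rule, so it changed class. The higher number in dense sgSETD8 came with a lower density in the core, at a log2 ratio of -0.60. The median log2 ratio over all matched dense regions was -0.26.

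LINC01108 and JARID2 labelled neighbouring parts of one gene-poor stretch of chromosome 6 between CD83, an immune surface protein gene, and JARID2, a subunit of Polycomb repressive complex 2. LINC01108 had 0, 2, 5 and 6 regions in the order used above and JARID2 had 0, 1, 4 and 3. The LINC01108 counts depend on class as well as on whether a region was called. Measured from the middle of its stretch, dense sgNT regions starting at -13.1, 11.1 and 116.7 kb were not far intergenic by the rule. The dense sgSETD8 regions over them were far intergenic. The reverse held for the dense sgNT region starting at -44.65 kb. Sparse sgNT held a repeat-centred region of rank 1724 in this stretch. A 43.1-kb region of dense sgNT (chr6:14436413-14479491, rank 439) and a 43.3-kb region of dense sgSETD8 (rank 534) shared their first base. Farther along, dense sgNT held regions of 12.3 and 35.3 kb (ranks 1871 and 500) where dense sgSETD8 held a single region of 58.6 kb (rank 284). The LOC102724463 window printed above lies in the 35.3-kb region of sgNT and in the 58.6-kb region of sgSETD8.

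The PTGER4 stretch, upstream of the gene of the prostaglandin E2 receptor EP4, held 2, 1, 3 and 3 far intergenic regions. The sparse sgSETD8 region (chr5:40474397-40488248, 13.9 kb, density 2.38) was the best-ranked far intergenic region of any table, at rank 24. At the same place sparse sgNT had a repeat-centred region of 1.66 kb at rank 37 and density 18.7. The dense regions were 35.9 kb at rank 475 in sgNT and 53.5 kb at rank 190 in sgSETD8.

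**Figure D3:**
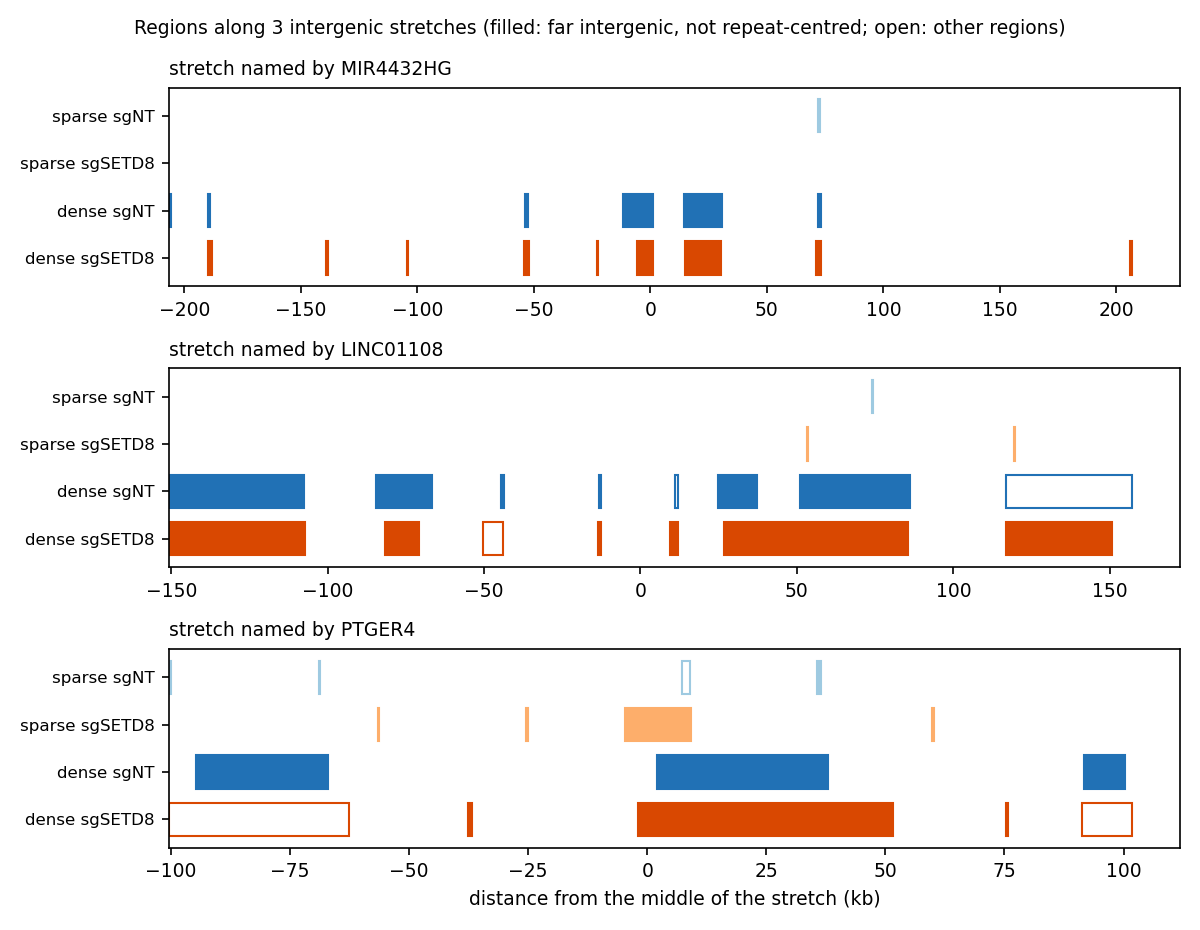
Regions along 3 intergenic stretches (x axis, distance from the middle of the stretch in kb), a row per table; filled bars are far intergenic regions and open bars are other regions, and the narrowest bars appear as lines. The broad bars recur in both dense tables, with differences in how neighbours were joined.

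CHSY1, a chondroitin synthase gene, labelled 2 regions in dense sgNT and 7 in dense sgSETD8, and none in the sparse tables. A sparse sgNT region that was not far intergenic by the rule (6.37 kb, rank 343) overlapped the 36.6-kb dense sgNT region described next. The 7 of dense sgSETD8 were separate neighbours within the span of a single dense sgNT region of 36.6 kb and 9 peaks (chr15:101113359-101149951, rank 505). Such unjoined neighbours were 1.61% of the far intergenic regions of dense sgSETD8 and 14.6% of its other regions. Other genes with many regions were LOC100505501 (4, 2, 3 and 2), INHBA (4, 0, 2 and 3), LY86-AS1 (1, 2, 5 and 1) and SLC39A10, a zinc importer gene (2, 2, 1 and 4).

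**Figure D4:**
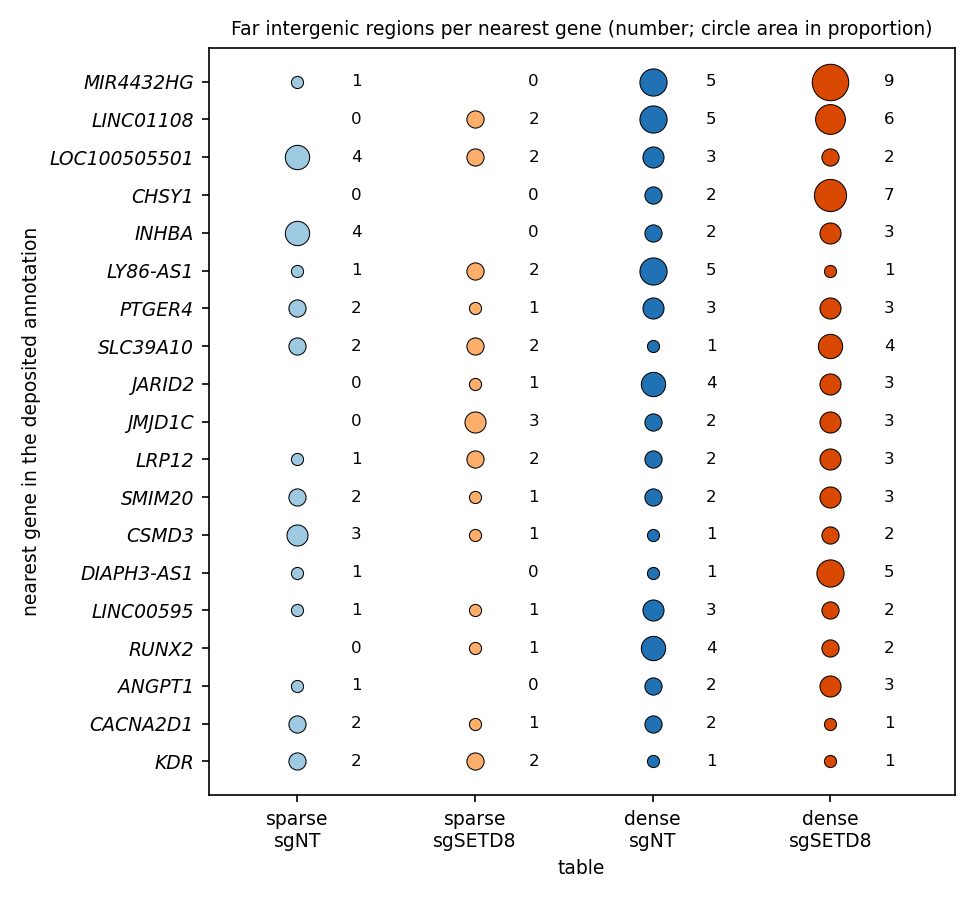
Number of far intergenic regions per table (columns) for genes that label most of them (rows), with circle area in proportion to the printed number. MIR4432HG has 5 in dense sgNT with 9 in dense sgSETD8, while INHBA has 4 in sparse sgNT with 0 in sparse sgSETD8.

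In all, 612 genes labelled a far intergenic region in some table, 351 of them by a single region and 29 in all 4 tables. In the sparse pair 147 genes were labelled in sgNT and 265 in sgSETD8, with 45 in both. In the dense pair the numbers were 245, 326 and 173. Of 367 genes with a region in the sparse pair, 60.5% had more in sgSETD8 and 30.2% had fewer. Of 398 in the dense pair, 47.7% had more and 23.4% fewer.

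The named gene lists held few labelled genes, and these are described beside the 339 of 20033 RefSeq protein-coding genes (1.69%) labelled in any table. Among 56 haematopoietic transcription factors 4 were labelled, RUNX2, PRDM1, RUNX1 and TCF7L2. RUNX2, a factor of bone formation, had 0, 1, 4 and 2 regions, and PRDM1, a repressor that drives plasma cell differentiation, had 0, 0, 3 and 2. RUNX1, the blood factor gene broken by t(8;21), had 1, 0, 2 and 2, all upstream of the gene between 122.4 and 156.3 kb from its start. Over the list the regions summed to 1, 1, 10 and 8.

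Among 34 surface and signalling genes of blood cells 6 were labelled, with sums of 5, 1, 6 and 6. ANGPT1, a ligand of the TIE2 receptor, had 1, 0, 2 and 3 regions, and CXCR4, a chemokine receptor that holds cells in bone marrow, had 1, 0, 2 and 1. SPRY2, an inhibitor of receptor tyrosine kinase signalling, had 1 in each table, but the sparse and dense positions differed. At the sparse position the dense tables held regions that were not far intergenic by the rule, of rank 5756 in sgNT and 4610 in sgSETD8. KIT had 2 in sparse sgNT and 0 elsewhere, where the repeat-centred regions described above cover the better-ranked of its positions. In the sparse pair 3 of the 4 genes labelled had fewer regions in sgSETD8 and none had more, beside 70 with fewer and 102 with more among all protein-coding genes. Of 20 survival and cell cycle genes BCL2 (2, 1, 0 and 1) and CDKN2B, an inhibitor of CDK4 and CDK6 (1, 0, 0 and 1), were labelled. The dense sgNT counts of 0 do not mean that no region was called there. Dense sgNT regions of rank 1476 and 5466 overlapped a BCL2 and the CDKN2B position of sparse sgNT. Of 27 mitochondrial regulators 1 was labelled, PPARGC1A.

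Developmental transcription factors of other tissues were labelled mainly in sparse sgSETD8. Of 71 developmental transcription factors 4 were labelled, with sums of 0, 8, 0 and 1. IRX1, a homeobox patterning gene, had 4 and SALL3, a zinc finger gene of limb and nerve development, had 3, all in sparse sgSETD8. None of these 7 regions overlapped a region of any other table, as was the case for 235 of the 300 far intergenic regions of sparse sgSETD8. The widest, near IRX1, was 11.8 kb with a density of 0.132. Of 70 neuronal adhesion and synapse genes 4 were labelled, with sums of 3, 5, 1 and 2. CDH6, CDH18 and CNTN3 were labelled in sparse sgSETD8 alone, and CSMD3 had 3, 1, 1 and 2.

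Density was compared only at regions of nearly the same extent in both dense tables, so regions whose extent differed are not covered. Regions that covered each other by at least 90% numbered 1769, and 25 of these were far intergenic in both tables. A further 14 were far intergenic in 1 table only and are left out here. Over all 1769 the median log2 ratio of density, sgSETD8 over sgNT, was -0.26, and values were centred on it because the scaling of the signal is not stated. The centred median of the 25 was 0.17 (SD 0.30 over regions, range -0.62 to 0.48), and without centring it was -0.095. Over all 1769 the SD was 0.24. Past a 1.5-fold change after centring were 0 higher, beside 1.41% of all matched regions, and 1 lower, beside 1.02%. Each ratio compares 1 library with 1 library and has no replicate error.

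The region past the fold was upstream of CSMD3, a large transmembrane protein gene, where density went from 0.803 in dense sgNT to 0.435 in dense sgSETD8 (centred log2 ratio -0.62). Among the 19 regions in the upper 50% of ranks of both tables, which also hold the CSMD3 region, the MIR4432HG core was next lowest at -0.33, from 1.81 to 1.20. LINC01335 (-0.26), CD180 (-0.22) and LINC01108 (-0.18) followed among these 19. Among their highest were LINC00707 (0.45), RUNX1, from 0.672 to 0.758 (0.44), LINC01080 (0.35) and PRDM1 (0.31). The sparse pair had 1 far intergenic region among 44 matched, at -1.14.

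**Figure D5:**
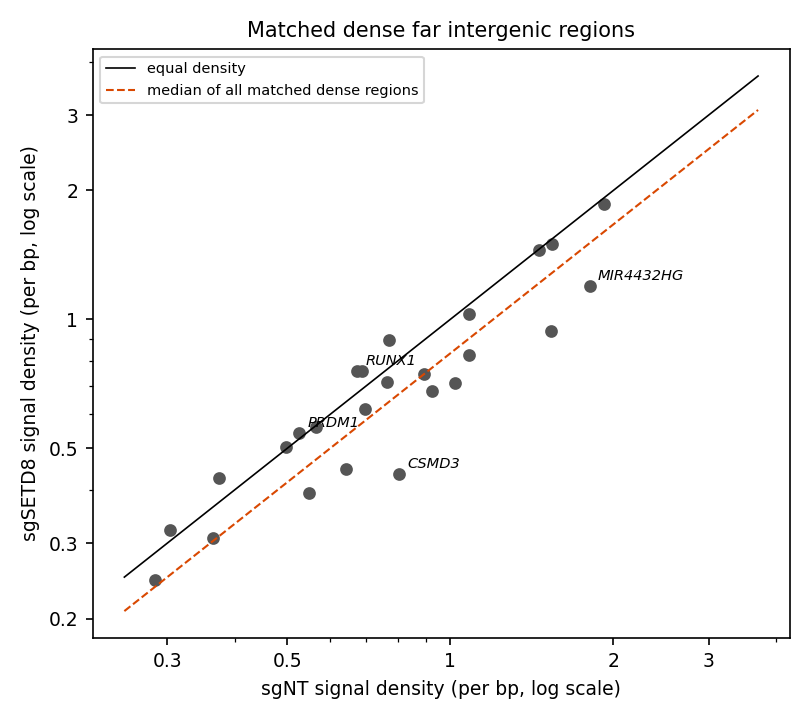
Signal density per bp in dense sgNT (x axis) and dense sgSETD8 (y axis), both on log scales, for the 25 matched far intergenic regions; the solid line is equality and the dashed line the median of all 1769 matched regions. CSMD3 lies farthest below the dashed line, and RUNX1 and PRDM1 lie above it.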

How the data were processed

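H3K27ac CUT&Tag tables from 2 sgNT and 2 sgSETD8 samples of Kasumi-1 were used. Per the submitters' processing notes, cutadapt, Bowtie2 and hg38 were used; their versions, like the peak caller, joining rule and annotator, are not given in sources used here. Values in the deposited signal column equal a density per bp, with up to 4 decimals, multiplied by width; its scaling is not stated. A table names a guide and not a sample, so tables were assigned to groups only. Narrow peaks, low depth and the joining of peaks can all change how many regions are counted.

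Far intergenic regions were selected as described, ranked by signal, and compared by overlap of at least 1 bp; Python 3.11.15, pandas 2.3.3, scipy 1.17.1 and bedtools 2.31.1 were used, and the calculations were tested on simulated data. Matched regions covered each other by at least 90%. No genome was used here, so motifs were searched only in RefSeq promoter windows, and no region sequence is shown.

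Regions were named by the nearest gene of the deposited annotation. Named are the 5 best-ranked of each table, with and without the condition that no counterpart exists, the 10 genes with most regions, loci in all 4 tables or in 1 group only, the extremes of matched density, up to 6 genes of each list, and regions beside the distance limit; those that carry a result are printed, and some of these items are not reported here. The members and lists were chosen with earlier results of these data known. Alternatives were a width minimum, other distances, inclusion of repeats, the best-ranked 5000, a stricter overlap and no centring. Sets overlapping the other pair, single peaks, joined regions, regions outside RefSeq genes and those without CpG islands were added after seeing the data.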

Additional observations from a re-analysis of the deposited data

How the results depend on the processing

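No paired test was made, and the tables carry no replicate numbers. The sparse and dense pairs follow the names in the region identifiers, and ratios were taken within each pair. With 2 tables per group, the smallest exact p is 0.333. Of 105 alternatives, 66 kept the result, 30 moved it and 9 reversed it; the cause was not tested. The log2 ratio of numbers in the sparse pair became -0.25 at widths of at least 500 bp, 1.15 beyond 200 kb, 1.76 with repeats included, 0.25 in the best-ranked 5000 and -1.18 among regions that overlap the dense pair. In the dense pair it became -0.21 in the best-ranked 5000 and 0.20 among regions that overlap the sparse pair. The difference in share, in points, became in the sparse pair 1.17 at 500 bp, 0.37 beyond 50 kb, 7.90 with repeats and -0.26 of intergenic regions. In the dense pair it became 1.01 with repeats, -0.20 in the best-ranked 5000 and 0.94 of intergenic regions. The log2 ratio of labelled genes became in the sparse pair 1.23 beyond 200 kb, 0.33 in the best-ranked 5000 and -0.098 at 500 bp, and in the dense pair -0.18 in the best-ranked 5000. Requiring 50% cover moved the share without a counterpart to 85.6% in sparse sgNT, 90.7% in sparse sgSETD8, 34.4% in dense sgNT and 61.8% in dense sgSETD8. For sparse sgSETD8 it became 75.3% at 500 bp, 81% in the best-ranked 5000 and 42.1% among regions in the other pair. For dense sgNT it became 17.3% at 500 bp, 8.57% among regions in the other pair and 31.9% among single peaks. For dense sgSETD8 it became 28.1% in the best-ranked 5000, 14.0% among regions in the other pair and 57.8% among single peaks. Overlap with the same guide's table of the other pair became 37.0% at 500 bp for sparse sgSETD8. At 50% cover it became 11.7% for dense sgNT and 1.15% for dense sgSETD8, for which 500 bp gave 5.85%. The median density ratio at matched regions without centring was -0.095. The log2 width ratio to other regions among single peaks became 0.049 in sparse sgNT and -0.15 in both dense tables. Leaving out 1 pair in turn gave 0.45 to 0.79 for numbers, 0.31 to 0.77 points for shares, 0.41 to 0.85 for labelled genes and 9.90 to 22 points for counterparts. Total read depth is unknown, which limits what the narrow regions can show.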

Other observations

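Far intergenic regions were spread unevenly over chromosomes, with no test made. In sparse sgSETD8 chromosome 5 held 44 of them (14.7%, against 8.99% of its other regions) and chromosome 18 held 20 (6.67% against 2.68%). The chromosome 5 share was also above that of other regions in sparse sgNT (10.3% against 5.21%), dense sgNT (6.94% against 5.45%) and dense sgSETD8 (8.53% against 5.96%). In sparse sgNT chromosome 4 held 19 (10.9% against 4.83%). Its share was also above in dense sgNT (9.15% against 4.86%) and dense sgSETD8 (9.91% against 6.09%), but below in sparse sgSETD8 (4.67% against 6.38%). In dense sgNT chromosome 6 held 44 (13.9% against 6.08%), and in dense sgSETD8 chromosome 2 held 50 (11.5% against 8.23%). Chromosome 6 was also above in sparse sgSETD8 (10% against 7.45%) and dense sgSETD8 (9.68% against 6.69%), and chromosome 2 in sparse sgNT (10.3% against 6.39%). Gene-dense chromosome 19 held 0, 2, 1 and 0 in the 4 tables.

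Some of the best-ranked far intergenic regions without a counterpart in their own pair were found near genes of known function. Dense sgSETD8 held a 22.5-kb region labelled by NRN1, which encodes a neurite growth protein (rank 3137), and a 0.316-kb far intergenic region of sparse sgNT (rank 4613) overlapped it. The same table held a 10.9-kb region upstream of TLE3, a Groucho family corepressor (rank 3837). Dense sgNT held a 13.0-kb region upstream of THY1, a cell surface glycoprotein gene (rank 4752). Sparse sgSETD8 held a 27.3-kb region labelled by FGF10-AS1 (rank 235, density 0.179), and no dense region lay within 335.5 kb of it.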
